A study of Mus musculus with 22 samples.

Results

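The genes examined here build the MHC class I pathway, by which nearly every nucleated cell shows fragments of its own proteins to CD8 T cells and natural killer cells. The list held 10 genes of the 55414 in the count table, taken by symbol, and all 10 had enough counts to be tested. They were H2-K1 and H2-D1 (the classical class I heavy chains), H2-T22, H2-T23 and H2-T24 (nonclassical class I heavy chains), B2m (the light chain shared by all of them), Tap1, Tap2 and Tapbp (peptide transport and loading) and Nlrc5 (a transactivator of class I promoters). Proteasome fragments are pumped into the endoplasmic reticulum by the TAP1 and TAP2 transporter, and tapasin, the product of Tapbp, holds empty heavy chain and beta-2-microglobulin beside it until a fitting peptide is bound. In fibroblasts the pathway runs at a basal level and is known to be raised by interferons.

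The fibroblasts came from the back skin of mice that had all been operated on. EXP mice received an expander hydrogel under the skin, which stretches it, and CTRL mice had the same incision and subcutaneous path without an expander. Skin was taken on day 1 (4 CTRL and 5 EXP libraries), day 2 (3 and 3) or day 4 (4 and 3), and live cells positive for CD34 and PDGFRα and negative for CD31, CD45, CD117 and EpCAM were sorted. The strain, sex and age of the mice, and whether a library is 1 mouse or a pool, are not given in the sources used here, so p-values measure the spread between these libraries. No group was left without surgery.

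The genes were chosen by pathway membership with results of these data known, and the list was in part selected on the day 1 log2 fold change of H2-T24, so the day 1 comparison of EXP with CTRL is given as a description. No p-value is printed for day 1, and its counts of genes past the threshold support nothing.

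Library totals ran from 21461294 to 30210204 counts, and 17554 genes were tested. Levels are CPM, the usual depth-scaled counts, here on library totals scaled by TMM. The fibroblast genes Col1a1 and Col1a2 reached at least 16800 and 14300 CPM in every library, with lower means in EXP than in CTRL on each day. The defining genes of the sorted-out cells were at or near 0, with at most 0.243 CPM for Ptprc (CD45), 3.68 for Pecam1 (CD31), 0.699 for Kit (CD117) and 2.09 for Epcam. A set of 192 genes around Rnf10 moved together apart from the groups and placed 7 libraries above a gap of 0.70 in their mean log2 CPM and 15 below it. The 7 were day 1 CTRL 1 to 3, day 1 EXP 1 and 2, and day 4 CTRL 3 and 4, so on day 4 every EXP library lay on the low side.

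Because several members are near-copies of one another, the transcripts were compared first. Of the 150-base windows of the longest coding transcript (150 bases is the read length), 1.79% of those of H2-D1 were also present in H2-Q1, 0.931% of those of H2-T22 in H2-T10 and 0.831% of those of H2-T23 in Gm7030. No such window of H2-K1, H2-T24, B2m, Tap1, Tap2, Tapbp or Nlrc5 was found in a transcript of another gene. With 50-base windows the shared part rose to 44.7% for H2-T22, 28.8% for H2-T23, 14.3% for H2-D1 and 8.79% for H2-K1, and it was 3.24% or less for the other 6. Separate values of H2-T22, H2-T23 and H2-D1 are therefore uncertain to an extent that depends on how the authors placed reads with several matches. By the GENCODE M21 gene models, exons of H2-T22, Tap1, Tap2, Tapbp and Nlrc5 overlap exons of other genes, on the opposite strand except for Zbtb22 at Tapbp. The overlap of Tap1 is with Psmb9, over 212 bases. Whether reads were counted by strand is not given in the sources used here, so these counts may hold reads of the neighbour.

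Promoter windows from 250 bases before to 50 bases after the annotated start were found for 7 of the 10 members in RefSeq (GRCm38.p6). H2-T24, Tap2 and Nlrc5 had none. Those of 5 are shown, picked after their values were seen, and no link of motifs with levels was tested. Tap1 and Tapbp were lower in EXP on the tested days and B2m on day 4. H2-T23, a nonclassical gene of the T region, and H2-K1, the classical gene whose day 1 mean was higher in EXP, passed on neither tested day. The 5 windows lie at chr17:34187306-34187605 (plus strand) for Tap1, chr17:33919228-33919527 (plus) for Tapbp, chr2:122147437-122147736 (plus) for B2m, chr17:36032652-36032951 (minus) for H2-T23 and chr17:34000298-34000597 (minus) for H2-K1. Capitals mark, on either strand, the CCAAT box, the CRE core TGACG, the ISRE-like pair (GAAA, any 2 bases, GAAA) that interferon regulatory factors are known to bind, and the NF-kB consensus.
Tap1: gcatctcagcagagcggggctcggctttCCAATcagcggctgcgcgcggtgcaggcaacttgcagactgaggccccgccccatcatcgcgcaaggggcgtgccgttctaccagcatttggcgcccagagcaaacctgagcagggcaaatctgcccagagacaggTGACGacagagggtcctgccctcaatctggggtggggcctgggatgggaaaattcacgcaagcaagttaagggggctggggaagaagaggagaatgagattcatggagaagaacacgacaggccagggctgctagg
Tapbp: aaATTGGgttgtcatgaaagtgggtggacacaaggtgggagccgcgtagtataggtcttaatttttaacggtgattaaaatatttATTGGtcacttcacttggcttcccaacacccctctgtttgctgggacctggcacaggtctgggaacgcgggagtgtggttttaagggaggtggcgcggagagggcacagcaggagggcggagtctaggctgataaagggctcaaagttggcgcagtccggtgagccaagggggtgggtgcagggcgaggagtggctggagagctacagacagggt
B2m: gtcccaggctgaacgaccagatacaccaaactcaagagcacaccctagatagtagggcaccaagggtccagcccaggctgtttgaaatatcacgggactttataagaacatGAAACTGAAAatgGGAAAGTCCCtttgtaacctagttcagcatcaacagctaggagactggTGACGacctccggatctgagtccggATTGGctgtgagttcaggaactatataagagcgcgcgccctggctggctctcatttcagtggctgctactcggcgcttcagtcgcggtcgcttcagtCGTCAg
H2-T23: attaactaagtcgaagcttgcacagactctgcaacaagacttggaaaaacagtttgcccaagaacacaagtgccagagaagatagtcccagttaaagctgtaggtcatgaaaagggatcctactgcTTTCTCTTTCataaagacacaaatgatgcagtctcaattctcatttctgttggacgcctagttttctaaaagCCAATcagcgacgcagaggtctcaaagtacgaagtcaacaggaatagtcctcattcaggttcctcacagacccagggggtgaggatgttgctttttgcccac
H2-K1: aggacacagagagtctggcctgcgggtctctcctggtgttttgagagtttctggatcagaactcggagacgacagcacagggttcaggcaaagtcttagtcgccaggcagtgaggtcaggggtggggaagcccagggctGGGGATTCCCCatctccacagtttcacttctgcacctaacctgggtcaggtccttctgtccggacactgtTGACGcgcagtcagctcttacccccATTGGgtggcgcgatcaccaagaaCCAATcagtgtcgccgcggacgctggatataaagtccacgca

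A CCAAT box was present in all 7 windows, against 37.4% of all 32851 RefSeq promoter windows of this length. TGACG was present in 5 of the 7 (H2-K1, H2-D1, H2-T22, B2m and Tap1), against 20.8% of all windows. In the windows of B2m, H2-D1 and H2-K1 it began 78, 101 and 41 bases before the annotated start, and in each of these 3 the next CCAAT box downstream began 25 bases after it. RefSeq held another window for H2-K1, from a different annotated start, in which the same match began at -55. B2m held a further TGACG match 44 bases after the start. The ISRE-like pair was present in 3 of the 7 (H2-T22, H2-T23 and B2m), against 3.44% of all windows, and began 191, 124 and 139 bases before the start. Only exact matches of the pair were marked, so windows without one, such as those of H2-K1 and H2-D1, may hold a looser form. The NF-kB consensus was present in 4 of the 7 (H2-K1, H2-D1, H2-T22 and B2m), against 8.46%, and in the windows of H2-K1 and H2-D1 it matched as a palindrome on both strands. The GAS-like site TTCNNNGAA was in 0 of the 7, against 8.30%. No match of one motif overlapped that of another in the windows shown. The windows of H2-K1 and H2-D1 share long stretches of sequence, so their matches and spacing are not separate instances in these counts. These letters are matches in a window and do not show binding.

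Transport and loading genes gave the clearest difference between the arms. Tap1, 1 of the 2 chains of the peptide pump, was at 80.3, 62.4, 71.2 and 75.8 CPM in the 4 CTRL libraries of day 1 and at 24.3, 23.3, 21.0, 42.2 and 32.6 CPM in the 5 EXP libraries. On day 2 it was at 69.7, 112 and 63.0 CPM in CTRL and 37.5, 35.3 and 23.2 CPM in EXP. On day 4 the CTRL libraries had 65.7, 66.4, 101 and 79.3 CPM and the EXP libraries 12.8, 29.6 and 33.3 CPM. The arms did not overlap on any of the 3 days, and no EXP library of any day reached the lowest CTRL library of any day. The log2 fold change of Tap1 was -1.34 on day 1 (SE 0.26). By edgeR's quasi-likelihood test it was -1.35 on day 2 (SE 0.32, adjusted p 0.00793), and the day 4 value was -1.63 (SE 0.31, adjusted p 0.00154).

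Tap2, the other chain of the pump, followed the same course at a higher level. Its CPM were 122, 94.4, 103 and 121 in CTRL and 54.5, 58.7, 37.8, 51.8 and 63.8 in EXP on day 1. On day 2 they were 89.3, 114 and 106 in CTRL and 54.7, 65.7 and 50.6 in EXP. On day 4 they were 87.8, 96.5, 115 and 94.7 in CTRL and 29.6, 58.6 and 54.2 in EXP. Every EXP library lay below every CTRL library, across days as well as within them. The log2 fold changes were -1.04 (SE 0.18) on day 1, -0.86 on day 2 (SE 0.22, edgeR adjusted p 0.0138), with a day 4 value of -1.06 (SE 0.21, adjusted p 0.00227), a level about 2.08-fold lower on day 4.

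Tapbp encodes tapasin, which links the heavy chain to the pump. In CTRL it was at 440 ± 8.10 CPM (SD, n = 4) on day 1, 610 ± 53.5 CPM (SD, n = 3) on day 2 and 587 ± 25.3 CPM (SD, n = 4) on day 4. In EXP it was at 276, 262, 169, 205 and 304 CPM on day 1, at 247, 355 and 287 CPM on day 2 and at 125, 360 and 421 CPM on day 4. The arms did not overlap on any day, although day 4 EXP replicate 1 lay far under the other 2, and without it the day 4 call was lost (-0.59, adjusted p 0.0692). The log2 fold changes were -0.86 (SE 0.23) on day 1, -1.04 on day 2 (SE 0.29, edgeR adjusted p 0.0208), with a day 4 value of -0.96 (SE 0.27, adjusted p 0.0172).

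On day 2 these 3 genes were the only members past the threshold, 3 of 10, against 5.71% of all tested genes called lower on that day. Leaving out any 1 library lowered the day 2 count of all genes, which was 2359 in the full fit. The count of members fell, stayed at 3 or rose. Without CTRL replicate 2, 1 of the 10 and 1220 of all genes passed, and without EXP replicate 1 these were 1 and 891. Without CTRL replicate 3 there were 2 members and 1573 genes, without CTRL replicate 1 there were 3 and 1465, and without EXP replicate 2 there were 4 and 2177. Without EXP replicate 3 there were 0 members and 1401 genes, and the log2 fold changes were -1.18 for Tap1 (adjusted p 0.0516), -0.79 for Tap2 (0.0671) and -1.03 for Tapbp (0.0657).

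**Figure D1:**
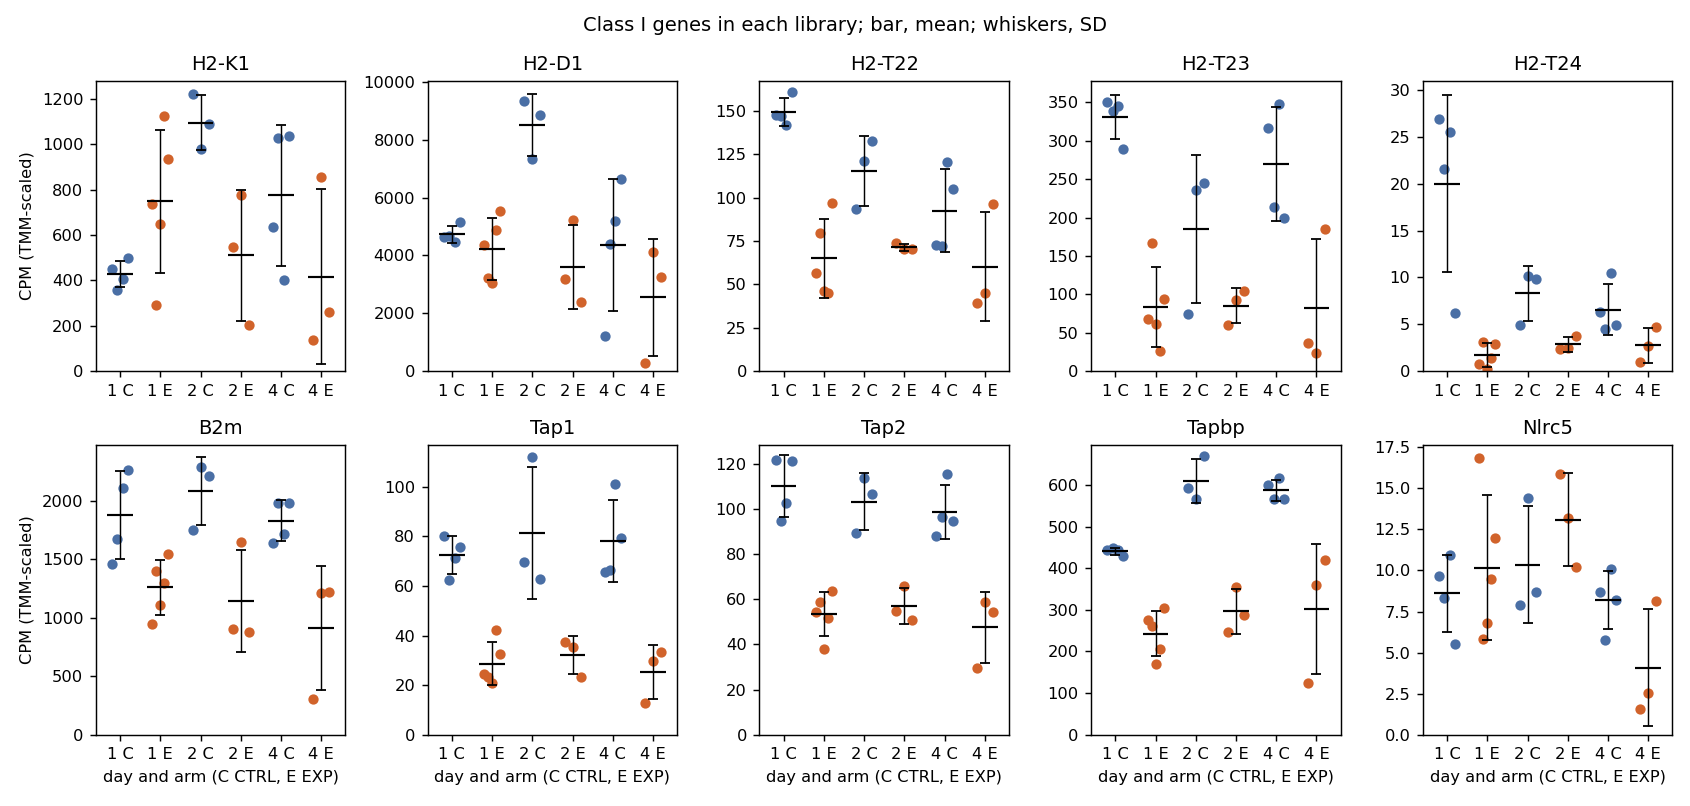
Level of each of the 10 genes in every library, as CPM on TMM-scaled totals (y axes start at 0), by day and arm (blue CTRL, orange EXP), with the mean and SD of each group. Tap1, Tap2 and Tapbp stand apart between the arms on every day, whereas H2-K1 and Nlrc5 overlap on day 1.

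B2m encodes the light chain that every class I heavy chain needs to fold and leave the cell. Its CPM on day 4 were 1638, 1976, 1717 and 1979 in CTRL and 303, 1211 and 1222 in EXP. The arms did not overlap, and day 4 EXP replicate 1 lay far below its group mates. The log2 fold change on day 4 was -1.0 (SE 0.34, edgeR adjusted p 0.0379). This call was lost in 4 of 7 leave-one-out fits, without CTRL replicate 2 (adjusted p 0.0644), CTRL replicate 3 (0.0579), CTRL replicate 4 (0.0737) or EXP replicate 1 (0.147, log2 fold change -0.59). On day 2 B2m was at 1745, 2284 and 2213 CPM in CTRL and 900, 1648 and 879 CPM in EXP, without overlap, and a difference of -0.87 missed the threshold (SE 0.35, adjusted p 0.111). On day 1 the groups overlapped, with 1461 to 2263 CPM in CTRL and 946 to 1545 CPM in EXP (log2 fold change -0.58, SE 0.29).

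The classical heavy chains varied more from library to library. H2-D1, the class I gene with the most counts, was at 9335, 7320 and 8872 CPM in CTRL and 3188, 5210 and 2395 CPM in EXP on day 2. The groups did not overlap on that day, while the log2 fold change of -1.24 (SE 0.62, edgeR adjusted p 0.196) did not pass. On day 1 its CTRL libraries lay between 4463 and 5142 CPM, inside the EXP range of 3042 to 5523 CPM, with a log2 fold change of -0.17 (SE 0.50) that turned to 0.03 when library totals were used without TMM. On day 4 the CTRL libraries had 1216, 4396, 5190 and 6645 CPM and the EXP libraries 269, 4127 and 3265 CPM, a difference of -0.77 (SE 0.58, adjusted p 0.351) that did not pass. Replicate 1 of each arm was the lowest of its group by a wide margin.

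H2-K1, the other classical chain, had the highest day 1 log2 fold change of the 10 members. Its CPM were 449, 360, 407 and 497 in CTRL and 739, 293, 647, 1127 and 937 in EXP. All EXP libraries but replicate 2 exceeded every CTRL library, and the log2 fold change was 0.81 (SE 0.46). On day 2 the order was the opposite, with 1220, 979 and 1089 CPM in CTRL and 550, 775 and 205 CPM in EXP, without overlap, and a difference of -1.10 (SE 0.56, edgeR adjusted p 0.206) that did not pass. On day 4 the CTRL libraries had 637, 1028, 402 and 1037 CPM and the EXP libraries 137, 855 and 260 CPM, with overlap (-0.90, SE 0.53, adjusted p 0.233). Whether the EXP effect on H2-K1 differed between day 1 and the later days was not tested, since the day 1 comparison was used in the choice of the list. Over the 7 fits that each lacked 1 day 4 library, the day 4 difference ran from -1.98 to -0.475. It passed only without EXP replicate 2 (-1.98, adjusted p 0.0223).

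The libraries also differed in which class I gene held the counts. Summed over 18 H2 class I rows with a mean of at least 1 CPM, H2-D1 held between 67.4% and 81.4% of the class I CPM in 20 of the 22 libraries. In day 4 CTRL replicate 1 and day 4 EXP replicate 1 it held 39.0% and 35.5%. H2-Q2, a related class I gene of the Q region, was at 10.8% and 11.4% of the H2-D1 level in these 2 libraries, at 1.99% in day 4 CTRL replicate 2, and at 0.330% to 0.614% in the other 19. H2-Q7 was at 12.0 and 3.95 CPM in those 2 libraries, against 28.3 to 90.5 CPM in the other 5 libraries of day 4. The labels give no strain or MHC haplotype, and the part of such differences in the values of the H2 genes was not tested. Without both libraries, 2 of the 10 members, Tap1 and Tap2, were called on day 4 in place of 4, and Tapbp was at -0.58 (adjusted p 0.0815) and B2m at -0.63 (adjusted p 0.139). This comparison was chosen after the data were seen.

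**Figure D2:**
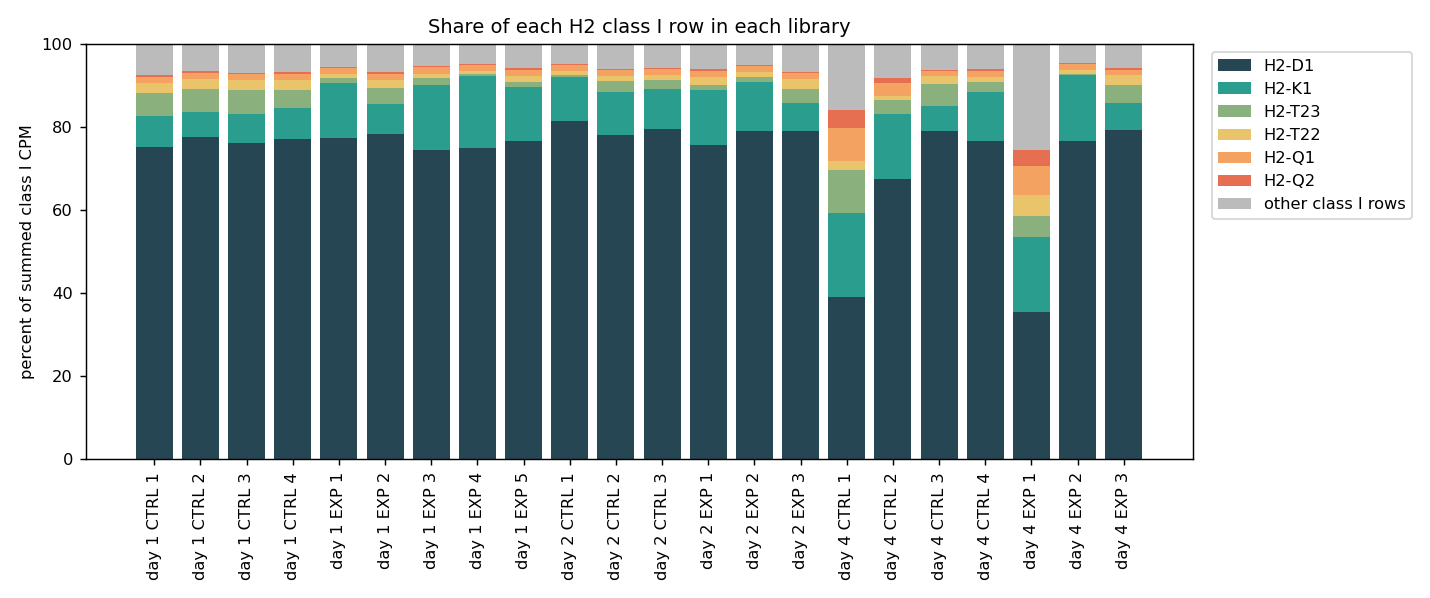
Share of the summed class I CPM (y axis, percent) in each of the 22 libraries (x axis, day, arm and replicate). It is split into H2-D1, H2-K1, H2-T23, H2-T22, H2-Q1, H2-Q2 and the other class I rows together. H2-D1 held at least 67.4% except in replicate 1 of each arm on day 4, where it held 39.0% and 35.5%.

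Summed over all 18 rows, class I CPM averaged 6176 ± 350 (SD, n = 4 CTRL) and 5518 ± 1402 (SD, n = 5 EXP) on day 1. On day 2 they were 10670 ± 1130 (SD, n = 3) and 4611 ± 1815 (SD, n = 3), without overlap, from 9380 to 11470 CPM in CTRL and from 3032 to 6594 CPM in EXP. On day 4 they were 6222 ± 2300 (SD, n = 4) and 3420 ± 2394 (SD, n = 3). With the counts of 16 class I rows summed into 1 before the fit, so that a read placed at another of these rows still counts, the log2 fold change was -0.15 on day 1 (SE 0.39), -1.21 on day 2 (SE 0.48, edgeR adjusted p 0.0982), with a day 4 value of -0.85 (SE 0.45, adjusted p 0.179).

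Of the nonclassical genes of the T region, H2-T24 had the largest day 1 difference of the 10 members, and it is the value that was known when the list was drawn up. It was at 26.9, 21.5, 25.5 and 6.21 CPM in CTRL and 0.769, 3.15, 0.254, 1.43 and 2.85 CPM in EXP (log2 fold change -3.57, SE 0.58). The groups did not overlap, although CTRL replicate 4 was much lower than the other CTRL libraries. CTRL levels were lower on the later days. On day 2 H2-T24 was at 4.88, 10.1 and 9.89 CPM in CTRL and 2.34, 2.52 and 3.79 CPM in EXP, without overlap, and the difference of -1.52 (SE 0.68, edgeR adjusted p 0.144) did not pass. On day 4 it was at 4.55 to 10.5 CPM in CTRL and 0.939 to 4.68 CPM in EXP, and a difference of -1.26 missed the threshold (SE 0.64, adjusted p 0.162).

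H2-T23 encodes Qa-1, which presents class I leader peptides to CD94/NKG2 receptors of natural killer cells. On day 1 it was at 351, 339, 346 and 289 CPM in CTRL and 67.8, 166, 61.9, 26.3 and 94.4 CPM in EXP, without overlap (log2 fold change -1.99, SE 0.52). On day 2 CTRL replicate 1, at 74.0 CPM, lay inside the EXP range of 59.8 to 104 CPM while the other CTRL libraries had 235 and 246 CPM, and the difference of -1.12 (SE 0.64, edgeR adjusted p 0.266) did not pass. On day 4 the CTRL libraries had 317, 213, 348 and 200 CPM and the EXP libraries 37.1, 23.8 and 186 CPM. These groups did not overlap, and the difference of -1.71 (SE 0.62, adjusted p 0.0527) missed the threshold. It passed without EXP replicate 3, the highest EXP library (-3.14, adjusted p 0.00111), with DESeq2 (adjusted p 0.0101) and when same-numbered replicates formed a block (adjusted p 0.0153). Over the 7 fits that each lacked 1 day 4 library, the difference ran from -3.14 to -1.30, and it passed in none but that without EXP replicate 3.

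H2-T22, whose product is known as a ligand of some gamma delta T cell receptors, was at 142 to 161 CPM in CTRL and 45.3 to 97.1 CPM in EXP on day 1 (log2 fold change -1.20, SE 0.25). On day 2 it was at 93.3, 121 and 133 CPM in CTRL and at 73.8, 70.1 and 70.6 CPM in EXP. The difference of -0.69 (SE 0.31, edgeR adjusted p 0.141) did not pass, nor did that of day 4 (-0.62, SE 0.29, adjusted p 0.127), where the groups overlapped. Over the 7 fits that each lacked 1 day 4 library, the day 4 value of H2-T22 ran from -1.13 to -0.387. It passed only without EXP replicate 3, the highest EXP library (-1.13, adjusted p 0.00597).

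Nlrc5, whose product is known to act at class I promoters, passed on neither tested day. It was at 5.52 to 10.95 CPM in CTRL and 5.82 to 16.8 CPM in EXP on day 1 (log2 fold change 0.24, SE 0.38). On day 2 it was at 7.92, 14.4 and 8.67 CPM in CTRL and 15.9, 13.2 and 10.2 CPM in EXP (0.34, SE 0.46, edgeR adjusted p 0.678). On day 4 it was at 8.71, 5.79, 10.1 and 8.23 CPM in CTRL and 1.56, 2.57 and 8.14 CPM in EXP. With all libraries the log2 fold change was -1.01 (SE 0.45) and missed the threshold at an adjusted p of 0.107. Over the 7 fits that each lacked 1 day 4 library, it ran from -1.98 to -0.612. It passed only without EXP replicate 3 (-1.98, adjusted p 0.0021). Within the EXP arm the change from day 2 to day 4 was -1.69 (SE 0.47, edgeR adjusted p 0.153), which passed with DESeq2 (-1.68, adjusted p 0.0287).

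Per kilobase of exon, the members kept nearly the same order in every group. B2m and H2-D1 were highest, at 1060 to 2420 and 990 to 3299 CPM per kilobase as group means. Their order changed between groups, and their means differed by more than the sum of their SDs in day 2 CTRL alone of the 6 groups (2420 ± 340 for B2m and 3299 ± 409 for H2-D1, SD, n = 3). H2-K1, Tapbp, H2-T23, H2-T22, Tap2 and Tap1 followed in that order in all 6 groups, with group means of 142 to 373 CPM per kilobase for H2-K1 and 4.602 to 14.9 for Tap1. H2-T24 and Nlrc5 were last, at 0.775 to 9.18 and 0.481 to 1.54 CPM per kilobase. Neighbours such as Tapbp and H2-T23 in day 1 CTRL (121 ± 2.23 and 115 ± 9.86, SD, n = 4) did not differ beyond their spread. The exon lengths come from M21, which may not be the annotation behind the counts.

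Counted over the list, 3 of the 10 members were called lower in EXP and 0 higher on day 2, and on day 4 there were 4 lower (B2m, Tap1, Tap2 and Tapbp) and 0 higher. Of all genes, 5.71% and 9.66% were called lower and 7.72% and 12.8% higher on these days. The log2 fold change was negative for 9 and 10 of the 10 members, against 48.8% and 48.5% of all genes. The median log2 fold change of the members was -1.07 and -1.01, against 0.02 and 0.03 over all tested genes. EXP lay wholly below CTRL for 8 and 5 members, against 18.4% and 11.8% of all genes, and wholly above it for 0 members, against 20.9% and 13.8%. On day 1, which was used in the choice, 6 members were past the threshold and lower and 0 higher, beside 14.7% of all genes lower, 13.9% higher and 28.6% either way. The same 6 lay wholly below CTRL on day 1 and 0 wholly above, beside 12.2% and 11.7% of all genes, and the members' median was -0.95. Nothing is read from any of these day 1 values. In bulk RNA, fewer cells that hold a transcript and less of it per cell cannot be told apart.

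The day 4 counts of members and of all genes, the latter 3943 in the full fit, also depended on single libraries. The member count was 2 without EXP replicate 1, with 1633 of all genes, and 7 without EXP replicate 3, with 5011 of all genes. Without EXP replicate 2 it rose to 5 while that of all genes fell to 2001. With the day 4 libraries fitted alone it was 2, with 1128 of all genes. When day 4 was restricted to the low side of the Rnf10 split (2 CTRL, 3 EXP), 0 of 10 members and 1 of all genes passed, with log2 fold changes of -1.39 for Tap1 (adjusted p 0.173), -0.96 for Tap2 (0.206), -0.95 for Tapbp (0.337), -0.99 for B2m (0.391) and -1.69 for H2-T23 (0.354). No day 2 library was high. Among the 3 CTRL and 2 EXP libraries of day 1 on the high side, the log2 fold changes were -1.62 for Tap1, -0.94 for Tap2, -0.76 for Tapbp and -3.69 for H2-T24, and that of H2-K1 was 0.30.

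**Figure D3:**
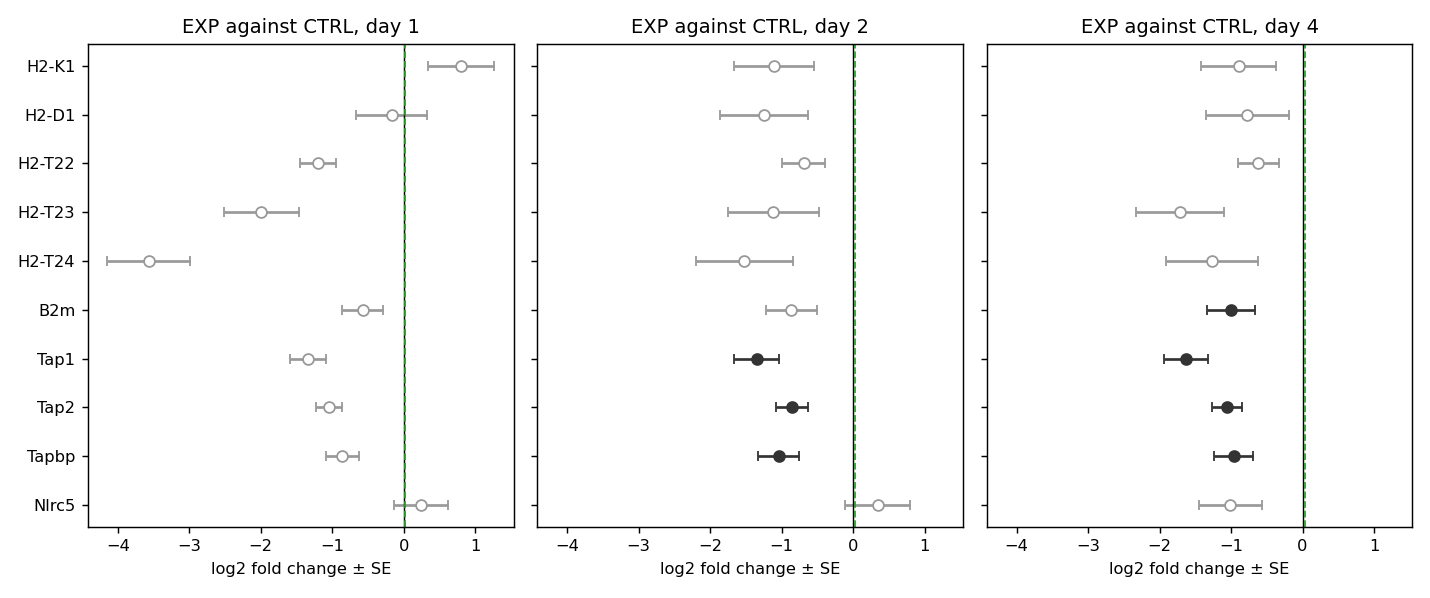
Log2 fold change of EXP against CTRL (x axis, points) with its standard error (whiskers) for the 10 genes on each day, and the median of all tested genes (green dashed line). Filled points passed an adjusted p of 0.05 on days 2 and 4, which are Tap1, Tap2 and Tapbp on both days and B2m on day 4, and day 1 is shown open because it is described without a test.

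Whether the EXP effect changed between day 2 and day 4 was tested directly. It passed for 0 of the 10 members and 0 of all genes with edgeR, and 1 member and 1174 of all genes had an unadjusted p under 0.05. With DESeq2 it passed for 0 members and 35 of all genes, and with limma voom for 0 members and 16 of all genes. Between days 2 and 4 within CTRL 0 members passed with edgeR, against 0.0057% of all genes. At an unadjusted p under 0.05 there were 0 members and 1195 of all genes. DESeq2 and limma voom each called 0 members within CTRL, with 16 and 1 of all genes. Within EXP 0 members passed with edgeR, against 0.387% of all genes called in either direction, 0.336% higher and 0.0513% lower. The unadjusted p was under 0.05 for 1 member and 1823 of all genes. DESeq2 and limma voom each called 1 member within EXP, Nlrc5, with 278 and 287 of all genes.

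Across the 22 libraries the members that pump and load peptides tracked one another. Pearson correlations of log2 CPM were 0.94 between Tap1 and Tap2, 0.89 between Tap2 and Tapbp and 0.86 between Tap1 and Tapbp. After group means were removed they were 0.74, 0.83 and 0.54. H2-D1 was most like B2m (0.81, and 0.80 after group means were removed), and Nlrc5 had the weakest nearest partner, H2-D1 (0.57). H2-T22 was about equally like H2-T23 and H2-T24 (0.857 each, and 0.755 and 0.633 after group means were removed). All points share library, scaling and day, so these values are a description. The 5 genes outside the list whose log2 CPM followed the mean standardised level of the members most closely over the 22 libraries were Zfp536 (0.95), Bmp4 (0.95), Cdh4 (0.95), Mettl24 (0.94) and Aldh3a1 (0.94).

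Other genes of the pathway were taken from lists written by hand from general knowledge, and the counts of each list stand beside 5.71% of all genes called lower and 7.72% higher on day 2, and 9.66% and 12.8% on day 4. These calls too depended on single libraries. Of the 15 day 2 calls among the genes that the naming rule gives, those of Cd1d1, Cd74 and Fcgrt held whichever day 2 library was left out. Of the 19 day 4 calls, those of Cd274, Cd47, H2-Q1, H2-Q4, H2-Q6, Ifngr1, Irf1, Socs1 and Ulbp1 held whichever day 4 library was left out. Of 12 genes that cut peptides or help to load them, 2 were lower and 0 higher in EXP on day 2, and 4 were lower and 0 higher on day 4, with medians of -0.06 and -0.24. Psmb9, an inducible proteasome subunit transcribed away from Tap1, had day 2 means of 21.9 ± 4.22 CPM in CTRL and 10.9 ± 1.99 CPM in EXP (SD, n = 3 each) and fell on both days (-1.0, edgeR adjusted p 0.044, and -0.94, adjusted p 0.034). Its day 2 call was lost in all 6 fits that lacked a day 2 library, and its day 4 call in 5 of 7. Psmb8, another inducible subunit, passed on day 4 (-1.21, adjusted p 0.0109) and not on day 2 (-0.82, adjusted p 0.103). Psmb10, the third of these subunits, passed on neither day (-0.42, adjusted p 0.359, and -0.24, adjusted p 0.56). Tapbpl, which encodes the tapasin-like editor TAPBPR, fell on both days (-0.70, adjusted p 0.0287, and -0.81, adjusted p 0.00697), and Erap1, a peptide-trimming peptidase of the endoplasmic reticulum, fell on day 4 (-0.62, adjusted p 0.0155).

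Of 15 further class I and class I-like genes, 5 were lower and 1 higher on day 2, and 6 were lower and 1 higher on day 4, so that the share called higher was no larger than that of all genes. H2-Q4 (-1.13 on each day, edgeR adjusted p 0.014 and 0.00804), H2-Q6 (-1.11 and -1.30, adjusted p 0.0174 and 0.00419) and H2-Q1 (-1.15 and -1.44, adjusted p 0.0237 and 0.00403) were among those that fell, and their reads may be shared with H2-D1 and with one another. Fcgrt, the heavy chain of the neonatal Fc receptor, which also pairs with beta-2-microglobulin, fell on day 2 (-1.20, adjusted p 0.00521) and day 4 (-0.90, adjusted p 0.0144). Cd1d1, which presents lipids to NKT cells, was the member of that list that rose, by 1.56 on day 2 (adjusted p 0.00447) and 1.02 on day 4 (adjusted p 0.022). Its day 2 means were 6.73 ± 1.58 CPM in CTRL and 19.9 ± 10.5 CPM in EXP (SD, n = 3 each).

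Of 13 tested factors known from class I or class II promoters, 1 was lower on day 2, a share near that of all genes, and 3 were lower on day 4, with none higher. Irf1, an interferon regulatory factor that binds the ISRE, had day 2 means of 326 ± 19.4 CPM in CTRL and 153 ± 13.9 CPM in EXP (SD, n = 3 each; -1.10, edgeR adjusted p 0.0161). Its day 4 means were 347 ± 46.8 CPM (SD, n = 4 CTRL) and 114 ± 68.6 CPM (SD, n = 3 EXP; -1.61, adjusted p 0.000967). Over the 7 fits that each lacked 1 day 4 library, the day 4 value ran from -2.21, without EXP replicate 3, to -1.36. Rfxap (-3.41, adjusted p 0.0193) and Rela (-0.67, adjusted p 0.0237) were the others lower on day 4, and without CTRL replicate 4 neither passed (-2.78, adjusted p 0.0541, and -0.53, adjusted p 0.0805). Rfx5, the DNA-binding partner through which NLRC5 acts, passed on neither day (-0.42, adjusted p 0.302, and -0.36, adjusted p 0.286), and Ciita, the class II counterpart of Nlrc5, had too few counts to test. Of 12 genes of interferon receptor signalling, 2 were lower on day 2 and 4 on day 4, with none higher. Ifngr1, a chain of the interferon gamma receptor, was lower on both days (-0.63, adjusted p 0.0438, and -0.86, adjusted p 0.00468), and Socs1 (-3.30, adjusted p 0.00726) and Stat2 (-1.21, adjusted p 0.0134) on day 4. Socs1, a feedback inhibitor of cytokine signalling, was at 13.2, 41.2, 138 and 215 CPM in CTRL and 7.59, 8.96 and 14.4 CPM in EXP on day 4. The groups overlapped, and without CTRL replicate 4, the highest, the value was -2.64 (adjusted p 0.0233).

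Of 6 tested surface ligands of natural killer and inhibitory receptors, 1 was lower and 1 higher on day 2, and 2 were lower and 1 higher on day 4. Cd274, which encodes PD-L1, fell by 1.74 on day 2 (edgeR adjusted p 0.0126) and by 2.17 on day 4 (adjusted p 0.00222), and Cd47 fell on day 4 (-0.83, adjusted p 0.00682). Ulbp1, a stress ligand of the activating receptor NKG2D, rose by 2.20 on day 2 (adjusted p 0.0203) and by 2.85 on day 4 (adjusted p 0.00198). On day 4 it was at 5.27, 1.80, 2.05 and 2.29 CPM in CTRL and 42.4, 10.5 and 8.75 CPM in EXP, and without EXP replicate 1, the highest, the rise was 1.76 (adjusted p 0.0303).

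**Figure D4:**
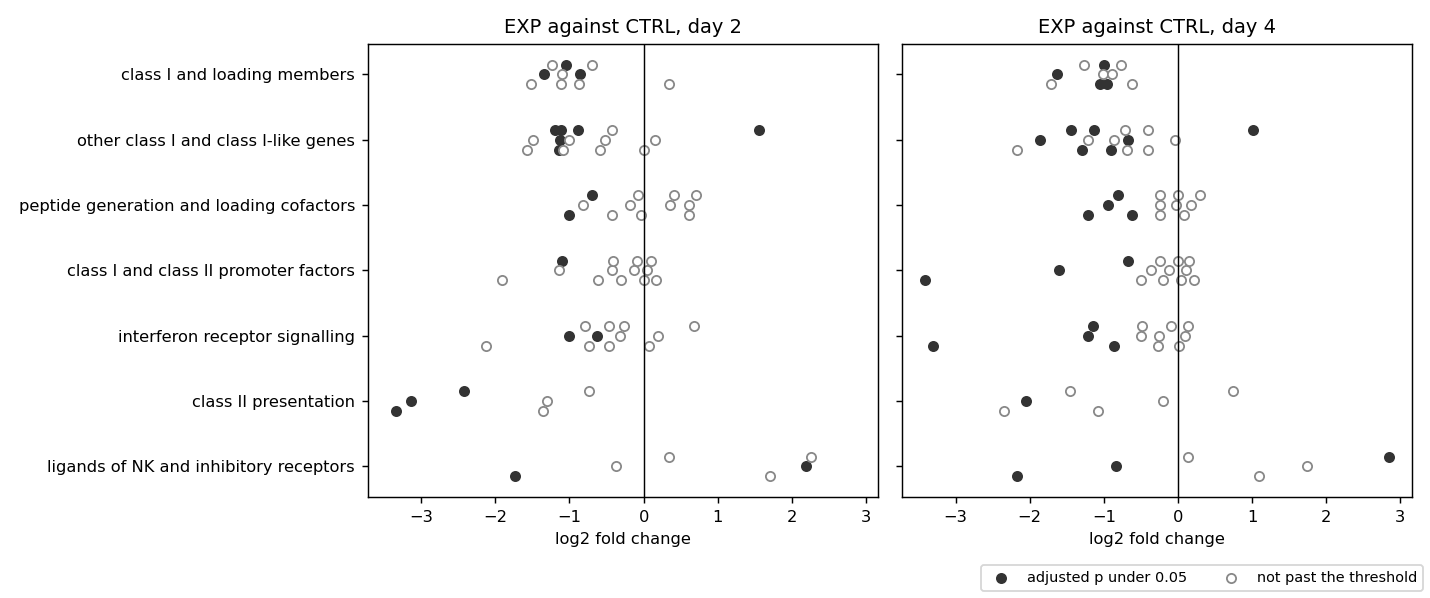
Log2 fold change of EXP against CTRL (x axis) for every tested gene of each list (rows) on days 2 and 4. Filled points passed an adjusted p of 0.05, and the called genes lie left of 0 except Cd1d1 and Ulbp1 on each day.

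Class II genes, which mark professional antigen-presenting cells, were low, with no group mean above that of Cd74 in day 2 CTRL. Of 6 tested, 3 were lower in EXP on day 2 and 1 on day 4. Cd74, the invariant chain, had day 2 means of 5.67 ± 1.90 CPM in CTRL and 0.640 ± 0.198 CPM in EXP (SD, n = 3 each; -3.14, edgeR adjusted p 0.0033), and day 4 means of 3.94 ± 1.37 CPM (SD, n = 4 CTRL) and 0.950 ± 0.802 CPM (SD, n = 3 EXP; -2.06, adjusted p 0.0169). The day 4 call of Cd74 was lost without EXP replicate 1 (-1.745, adjusted p 0.0953) and without EXP replicate 3 (-1.703, adjusted p 0.0568). Without EXP replicate 2 the day 4 value was -3.02. H2-Aa (-3.34, adjusted p 0.0304) and H2-Ab1 (-2.43, adjusted p 0.0421) fell on day 2, and these calls were lost in 4 and 6 of the 6 fits that lacked a day 2 library. The value of H2-Aa was -5.02 without EXP replicate 2 and -2.74 without EXP replicate 1. Of the 15 leukocyte markers, 2 in day 2 CTRL and 3 in day 4 CTRL were at 0 in every library, and in EXP of either day 0 were. The summed level of the 15 was 145 to 186 CPM in CTRL and 108 to 184 CPM in EXP on day 2, and 124 to 163 and 108 to 196 CPM on day 4. The highest of the 15 in all 4 of these groups was Csf1r, at a mean of 136 CPM in day 2 CTRL and 59.8 CPM in day 2 EXP, while Ptprc, Adgre1 and Itgam were at most 0.243, 0.236 and 0.231 CPM in any library. Csf1r missed the threshold on both days (-1.19, adjusted p 0.0629, and -0.57, adjusted p 0.303). Other markers of the list passed and were higher in EXP, namely Cd14 on both days (1.18, adjusted p 0.0337, and 1.34, adjusted p 0.00841), Cd68 on day 2 (1.86, adjusted p 0.0217) and Cd3e on day 4 (2.69, adjusted p 0.0115). S100a8 also passed on both days (adjusted p 0.0165 and 0.00907), at EXP means of 1.88 ± 2.48 and 1.15 ± 1.15 CPM (SD, n = 3 each) and near 0 in CTRL. The 8 endothelial markers summed to 0.548 to 1.36 CPM in CTRL and 2.12 to 7.81 CPM in EXP on day 2, and to 4.59 to 11.5 and 25 to 56.6 CPM on day 4, with Tek the highest in day 4 EXP at a mean of 28.4 CPM. Kdr was higher in EXP on both days (adjusted p 0.0345 and 0.0179) and Emcn on day 4 (adjusted p 0.0394). The 7 pericyte and smooth muscle markers summed to 84.0 to 92.8 CPM in CTRL and 29.7 to 52.4 CPM in EXP on day 2, and to 49.3 to 115 and 21.9 to 68.4 CPM on day 4, where the groups overlapped. The 8 keratinocyte markers summed to at most 49.0 CPM and the 5 melanocyte markers to at most 37.0 CPM in any library, and Trp63, a keratinocyte marker, was lower in EXP on both days (adjusted p 0.00399 and 0.00599). The 6 fibroblast markers summed to 236000 to 288000 CPM in CTRL and 48300 to 120000 CPM in EXP on day 2. On day 4 they summed to 188000 to 249000 and 40700 to 185000 CPM. Col1a1 and Dcn were called lower on both days, Cd34 and Col1a2 on day 2 and Lum on day 4, and Pdgfra higher on both. Of the 2 genes whose products were used to sort the cells, Cd34 had day 2 means of 1848 ± 213 CPM in CTRL and 441 ± 225 CPM in EXP, and Pdgfra of 239 ± 16.8 and 780 ± 286 CPM (SD, n = 3 each). The part of these markers in the class I results was not tested.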

How the data were processed

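RNA from 22 libraries of sorted skin fibroblasts was deposited by the authors as a single table of raw counts per Ensembl gene, with 0 columns of other samples. Trimmomatic and genome build mm39 are named in the submitters' processing notes. The aligner, counting tool, annotation and strandedness are not given in the sources used here. Symbols came from GENCODE M21 (GRCm38), which named 52081 of 55414 identifiers. Because the builds differ, gene coordinates are given only for RefSeq promoter windows.

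Counts were fitted in R 4.3.3 with edgeR 4.0.16: filterByExpr (minimum count 10), TMM, robust quasi-likelihood F-tests on 6 group means over all 22 libraries (16 residual degrees of freedom), Benjamini-Hochberg adjustment over 17554 genes, threshold 0.05. Log2 CPM used a prior count of 2. Standard errors belong to the log2 fold changes. The fit was tested on simulated data. Depth was 21461294 to 30210204 counts, and 3 counts correspond to 0.0993 to 0.140 CPM, for counting error only.

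The members and lists were chosen with earlier results of these data known. Named were all 10 members, up to 3 called genes of each other list on days 2 and 4 with the smallest p, and Rfx5, Ciita, Irf1, Psmb8, Psmb9 and Psmb10. Another gene under this rule is not reported here. H2-Q2, H2-Q7 and marker genes were added after their values were seen. No 2 replicates of a group agreed within sampling noise (chi-square divided by its degrees of freedom was 26.7 to 403). Alternatives were DESeq2 1.42.0, limma 3.58.1 voom, other scalings and filters, fits by day, the replicate number as a block, the library split and leaving out each library.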

Additional observations from a re-analysis of the deposited data

Results flagged for a closer look

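Among 104 groups of 4 or 5 libraries, for the members and the other named genes, 8 had a library far from the rest of its group, where chance gives about 1 in 20, or 5.2. None was of a member of the list, but groups of 3 libraries, such as day 4 EXP, were not covered. Some low libraries of members described above were not flagged either. Examples are day 1 CTRL replicate 4 for H2-T24 (6.21 CPM) and day 4 CTRL replicate 1 for H2-D1 (1216 CPM). On day 4, CTRL replicate 2 was highest for Psmb8 (114 CPM, the others 72.6 to 77.3) and for H2-Aa (2.49 CPM, the others 1.02 to 1.26), CTRL replicate 4 for Cd1d1 (7.62 CPM, the others 4.93 to 5.13) and CTRL replicate 1 for Ulbp1 (5.27 CPM, the others 1.80 to 2.29). On day 1, CTRL replicate 1 was highest for Rela (73.4 CPM, the others 61.3 to 62.4) and Socs3 (1600 CPM, the others 958 to 996), CTRL replicate 4 was lowest for Rfx5 (4.25 CPM, the others 4.53 to 4.57), and EXP replicate 2 was highest for Ciita (0.202 CPM, the others 0 to 0.0365).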

How the results depend on the processing

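The counts below are of genes past an adjusted p of 0.05. On day 2, where 3 members and 16 other pathway genes passed, limma voom called 7 and 29, the day's libraries fitted alone 7 and 25, and library totals without TMM 1 member. Over all genes the day 2 count was 2359, against 4567 with limma voom and 4632 without TMM. The count of all genes with the day 2 libraries fitted alone is not reported here, so nothing is read from the 7 members of that fit. On day 4, where 4 members and 22 other pathway genes passed, the day's libraries alone gave 2 and 5, the low side of the library split 0 and 0, and leaving out both libraries numbered 1, chosen after seeing the data, 2 and 11. Over all genes the day 4 count was 3943, against 1128, 1 and 1545 in these 3 fits. On day 1 the high side of the split gave 13 other pathway genes in place of 21, and 2210 of all genes in place of 5017. Within EXP between days 2 and 4, DESeq2 and limma voom each gave 1 member in place of 0, with 278 and 287 of all genes in place of 68. Without TMM the day 1 value of H2-D1 turned from -0.17 to 0.034, and the median of all genes moved to 0.21, 0.49 and 0.36 on days 1, 2 and 4. The cause of these changes was not tested.

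Leaving out 1 library at a time gave 0 to 4 members and 891 to 2177 of all genes on day 2, 2 to 7 members and 1633 to 5011 of all genes on day 4, 3 to 13 other pathway genes on day 2 and 11 to 24 on day 4, and 0 to 1 of each between days within EXP.

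With the replicate number as a block, 5 members and 2210 of all genes passed on day 2 (H2-D1 at adjusted p 0.0395 and H2-T22 at 0.048 in addition) and H2-T23 passed on day 4 (-2.42, adjusted p 0.0153), with 2702 of all genes. The labels do not say that a number is shared between arms. Deviations of same-numbered libraries correlated at -0.066 to 0.164, which cannot show whether they share more than a number.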
